A study of Mus musculus with 4 samples.

Results

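The Folr2 F13a1 macrophages described here were cells of mouse mammary tumors that carried RNA of C1q, the first component of the classical complement pathway, together with RNA of Folr2, Cd163, Lyve1 and F13a1, genes used to recognise macrophages that reside in a tissue. RNA was counted as UMIs (unique molecular identifiers), tags that let each captured molecule be counted once. A cell barcode was a member when it held at least 2000 UMIs, of which at most 20% came from mitochondrial genes, and met 4 further conditions. Per 10000 UMIs it held at least 10 of C1qa, C1qb and C1qc together. It held at least 5 of Folr2, Cd163, Lyve1 and F13a1 together, a sum called the score below, with at least 2 of these 4 genes detected. It held fewer than 5 of the epithelial genes Epcam, Krt8 and Krt18, and no UMI of the T cell gene Cd3e. Of the 23876 barcodes with at least 2000 UMIs, 1268 were members. They were compared with 3740 score-low macrophages, which passed the same conditions with a score under 2, while 502 macrophages lay between the limits and entered neither class.

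Tumors of 4 mice were analysed, with 1 library of the 3' v3 kit of 10x Genomics per mouse. All mice carried the PyMT oncogene under the MMTV promoter and 2 floxed alleles of Frmd8 (Frmd8 fl/fl), on a C57BL/6 background, and the tumors were taken at endpoint, 17 to 18 weeks of age. Mice 1 and 3 were MMTV-Cre- littermate controls (Cre-), and mice 2 and 4 carried MMTV-Cre (Cre+), a transgene whose promoter is active in mammary epithelium, so that macrophages were not its intended target. The cells had been sorted by flow cytometry, with no marker named for the gate. Mice 1, 3, 2 and 4 gave 206, 410, 490 and 162 Folr2 F13a1 macrophages, with 3051527, 7305837, 7298199 and 3194977 UMIs in all. The libraries held 122658098, 126843597, 112729231 and 157662955 UMIs in that order, which is kept below wherever values of the 4 mice are given in a row. The library of Cre+ mouse 4 differed from the others in 2 ways that cannot be told apart from the mouse, since it was made with another version of Cell Ranger and was deposited with all barcodes, including empty droplets.

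Tissue-resident macrophages that display the folate receptor FOLR2 and the hyaluronan receptor LYVE1 lie mainly along vessels and in connective tissue of the mammary gland and other organs. They take up debris through scavenger and lectin receptors, and they are known as a population apart from the macrophages that arise from recruited monocytes as a tumor grows. Many of their receptors, such as the mannose receptor CD206 (Mrc1) and the lectins of the CD209 family, bind sugars on dying cells, microbes and glycoproteins.

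Of the 2 genes in the label of the class, Folr2 Lyve1 macrophages, Lyve1 was found in fewer members. F13a1, which encodes a subunit of coagulation factor XIII, was detected in 99.5%, 99.5%, 99.4% and 99.4% of the members. Folr2 was detected in 93.7%, 97.1%, 94.9% and 96.3%. Lyve1 was detected in 41.7%, 43.7%, 63.9% and 38.9%, and Cd163, the receptor for haptoglobin bound to hemoglobin, in 47.6%, 48.8%, 63.3% and 49.4%. Fewer members thus had a UMI of Lyve1 than of Folr2 in every mouse, which does not limit how many express it. Epithelial cells, which should lack these genes, held Lyve1 in 0.235%, 1.90%, 1.30% and 0.271% of cells and Folr2 in 10.1%, 5.46%, 8.84% and 1.62%, at median depths of 27790, 24678, 15801 and 18814 UMIs against 10869, 15896, 14228 and 16312 in the members. With each cell thinned to 2000 UMIs, Lyve1 was detected in 26.2%, 27.6%, 43.3% and 20.4% of members and in 0.047%, 0.403%, 0.25% and 0% of epithelial cells. Thinning lowered the shares, and members stayed far above epithelial cells. F13a1 gave between 50.7% and 55.6% of the UMIs of the score in each mouse, and all 4 genes were detected together in 23.3%, 26.1%, 41.8% and 20.4% of members. With thinned cells, Folr2 was detected in 64.6%, 64.6%, 73.1% and 59.3% of members and F13a1 in 80.1%, 85.4%, 92.2% and 79.0%. The class is named here by Folr2 and F13a1, which were detected in more members than Lyve1, thinned or not. The members were chosen by these levels of Folr2, Cd163, Lyve1, F13a1 and C1q, so the values are a description.

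Most macrophages lay far from the limits of the score, as the histogram of the score shows. The median score of the members was 22.2, 20.3, 39.6 and 15.8 per 10000 UMIs, highest in Cre+ mouse 2. Just inside the limit, with a score of 5 to 6, lay 12, 16, 5 and 8 members, and just outside, with a score of 4 to 5, lay 13, 33, 25 and 22 cells. The lowest score of a member was 5.05 to 5.16 by mouse, and the highest score below the limit was 4.96 to 4.98.

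**Figure D1:**
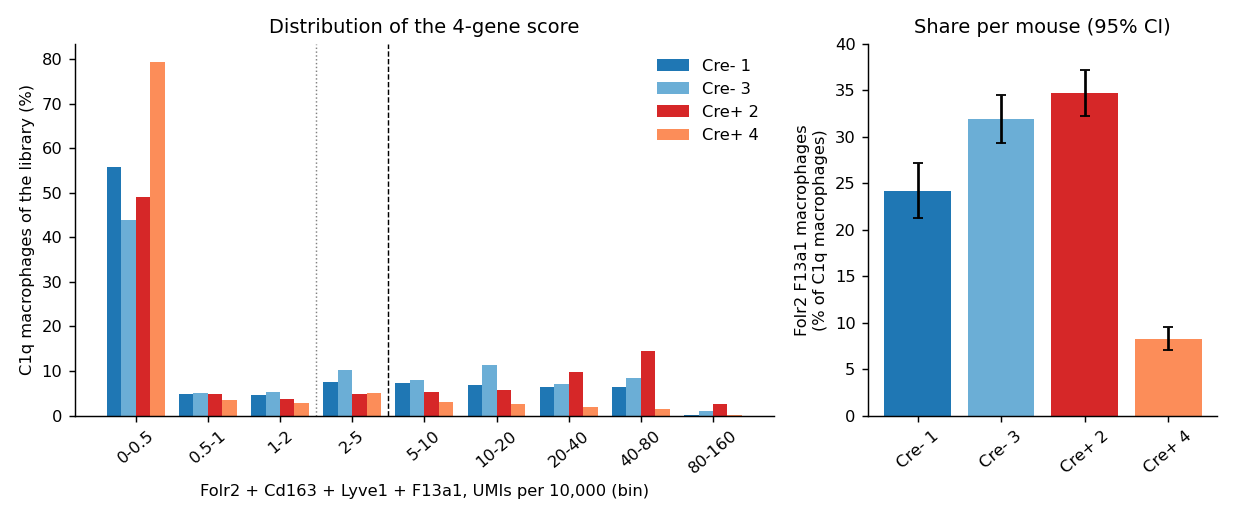
Left, the percentage of C1q macrophages of each library (y) in each bin of the summed UMIs of Folr2, Cd163, Lyve1 and F13a1 per 10000 UMIs (x, unequal bins), 1 bar color per mouse, with the limits of 2 (dotted) and 5 (dashed). Right, Folr2 F13a1 macrophages as a percentage of C1q macrophages per mouse with 95% Clopper-Pearson intervals; mice Cre- 1, Cre- 3 and Cre+ 2 lie between 24.1% and 34.7% and Cre+ 4 lies at 8.27%.

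General macrophage genes were present in the members. Csf1r, which encodes the receptor for the growth factor on which most macrophages depend, stood at 689, 779.8, 929 and 603 UMIs per 1000000 UMIs of the summed cells (CPM), and Lyz2, the lysozyme gene of myeloid cells, at 12180.1, 15536, 13542 and 10388 CPM. Markers of T cells and dendritic cells were low, with T cell genes higher in mouse 4 than in the others. The rule left out cells with a Cd3e UMI, so low T cell genes are in part set by it. The 5 T cell genes summed to 0.328, 2.60, 2.74 and 14.1 CPM, with Trbc2 the most abundant in mice 1, 3 and 2 and Cd3g in mouse 4, and the 5 dendritic cell genes summed to 2.95, 3.15, 4.11 and 2.19 CPM, mostly Zbtb46. Lyve1 is also carried by lymphatic vessels, so their markers were read as well. Of the 5 genes of lymphatic vessels, Pdpn gave 140.6, 67.6, 9.87 and 44.4 CPM in the members, the others stayed under 1 CPM, and Ccl21a and Mmrn1 were at 0 in all 4 mice. Neutrophil genes summed to 29.1 to 44.8 CPM with Csf3r the most abundant, genes of blood vessels to 6.16 to 19.7 CPM, B cell genes to 10.0 to 13.4 CPM, mostly Cd79b, and mast cell genes to at most 1.37 CPM. NK cell genes summed to at most 16.9 CPM, platelet genes to at most 17.2 CPM and pericyte genes to 10.0 to 124 CPM. Markers of stroma and epithelium were higher than those. Fibroblast genes summed to 448, 212, 764 and 587 CPM, led by collagen genes, and epithelial genes to 483, 328, 360 and 201 CPM, led by Wfdc18 or Csn3. Score-low macrophages held 363, 1301, 974 and 99.7 CPM of the fibroblast genes and 338, 282, 277 and 237 CPM of the epithelial genes. How far free RNA or attached cells gave these counts was not tested.

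Against score-low macrophages, the Folr2 F13a1 macrophages were far higher in lectins of the CD209 family, the chemokines Cxcl13 and Ccl8 and the endothelin receptor gene Ednrb, and far lower in the protease gene Mmp12, the cytokine gene Il1a and the integrin gene Itgax. UMIs were summed per mouse and class, and the classes were compared within mice with the quasi-likelihood test of edgeR, mouse as a block, with Benjamini-Hochberg adjustment over 12207 genes and a threshold of 0.05. The 11 genes of the rule were left out. The test passed 38.3% of the genes, 2276 higher in the members (18.6%) and 2405 lower (19.7%), with a median log2 fold change of -0.04 over all genes tested. Both classes were cut from 1 population by the score, so a passing gene is one whose level went with the score in the same way in these mice, beyond the spread between them. Gene lists are read below beside these shares.

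Sugar-binding receptors gave wide gaps. Cd209g, which encodes a C-type lectin, stood at 143, 225, 436 and 70.4 CPM in the members and at 0.73, 1.95, 1.38 and 0 CPM in score-low macrophages. Its neighbor Cd209f stood at 213, 336, 750.2 and 117 CPM against 0.122, 6.90, 2.93 and 0.142 CPM. For both genes every member value lay far above every score-low value, and the members of Cre+ mouse 4 were lowest. The log2 fold change was 7.75 ± 0.43 (SE, 4 mice) for Cd209g and 7.24 ± 0.61 for Cd209f. The family was chosen for description after its values had been seen. Of the 8 family names looked up, 7 were measured above the filter, and all 7 rose (background 18.6%), with a median log2 fold change of 6.36. Cd209d rose by 6.80 ± 0.48, Cd209b by 6.36 ± 0.54, Cd209e by 5.73 ± 0.66, Cd209a by 3.72 ± 0.60 and Cd209c by 3.41 ± 0.66. Cd209c was low in the members, at 1.31 to 2.60 CPM.

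These 7 genes lie side by side on mouse chromosome 8, in the order Cd209a, Cd209e, Cd209d, Cd209b, Cd209c, Cd209f and Cd209g, with no other protein-coding gene between them. They belong to 1 gene family, and how reads that match several of them were counted was not examined, so the split of counts among them is uncertain. The promoters of Cd209f and Cd209g are shown because these members of the family had the largest changes and shared a long run of bases. The windows run from 250 bases before to 50 bases after the transcript start in RefSeq, build GRCm38.p6, and lie at chr8:4105715-4106014 on the minus strand for Cd209f and at chr8:4134486-4134785 on the plus strand for Cd209g. Capitals mark the longest run of bases that both share without a mismatch.
Cd209f: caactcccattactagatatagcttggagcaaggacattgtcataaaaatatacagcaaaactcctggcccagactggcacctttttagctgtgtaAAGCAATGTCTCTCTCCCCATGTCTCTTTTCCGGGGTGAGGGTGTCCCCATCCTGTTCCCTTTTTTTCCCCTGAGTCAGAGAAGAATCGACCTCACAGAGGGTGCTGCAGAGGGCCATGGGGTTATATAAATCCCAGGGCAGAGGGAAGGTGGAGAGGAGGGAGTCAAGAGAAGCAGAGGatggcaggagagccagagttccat
Cd209g: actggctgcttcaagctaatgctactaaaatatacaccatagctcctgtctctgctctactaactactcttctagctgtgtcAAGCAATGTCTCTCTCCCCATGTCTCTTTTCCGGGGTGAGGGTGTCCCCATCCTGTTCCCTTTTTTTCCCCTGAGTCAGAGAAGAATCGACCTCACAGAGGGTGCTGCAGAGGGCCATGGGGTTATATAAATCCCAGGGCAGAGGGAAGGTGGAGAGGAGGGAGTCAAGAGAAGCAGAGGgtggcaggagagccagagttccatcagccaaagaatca
The shared run is 180 bases long, of 300 in each window. Among the 21 pairs of the 7 promoters, the next longest shared run was 17 bases and the median 9 bases. The run holds the letters TGAGTCA (reverse complement TGACTCA), found on either strand in 2 of the 7 promoters, Cd209f and Cd209g, and in 5.20% of 32851 promoter windows of the same length. It also holds TATAAA (reverse complement TTTATA), found in Cd209a, Cd209f and Cd209g and in 13.6% of all windows. A match of letters is a description of the window.

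The other genes of the list of resident macrophage genes rose as well. All 21 of its genes, Cd209f and Cd209g among them, passed the test in the upward direction (background 18.6%). The median log2 fold change was 3.28 against -0.04 over all genes. Mrc1, the mannose receptor, stood at 1551, 1597, 1960.5 and 1397 CPM in the members and at 139, 161, 115 and 104 CPM in score-low macrophages, a log2 fold change of 3.50 ± 0.13 with no overlap. Cbr2, a carbonyl reductase used as a marker of resident macrophages, stood at 447, 585, 693 and 483 CPM against 25.7, 25.4, 13.9 and 6.64 CPM (4.96 ± 0.36). Ednrb, which encodes a receptor for endothelin, stood at 246, 298, 573 and 192 CPM against 1.34, 2.51, 1.95 and 2.13 CPM (7.01 ± 0.27). Each of these 3 genes was higher in the members of every mouse, and Cre+ mouse 2 had the highest member value of each.

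Further genes of that list cover uptake and secretion. Clec10a, a lectin for galactose sugars, rose by 4.46 ± 0.16 on the log2 scale, and Fcgrt, the receptor that recycles antibodies, by 3.28 ± 0.10. Gas6, which encodes a bridge between dying cells and the receptors MERTK and AXL, rose by 3.17 ± 0.20, and the transcription factor gene Maf by 2.42 ± 0.13. Fcna, the secreted lectin ficolin, stood at 110, 221, 326 and 141 CPM in the members against 5.23, 2.58, 2.36 and 2.38 CPM. Vsig4, a receptor for complement C3 fragments, stood at 17.4, 17.9, 38.8 and 31.3 CPM in the members and at 0, 0, 0.163 and 0.0568 CPM in score-low macrophages. Timd4, a receptor for phosphatidylserine that marks long-lived resident macrophages in other organs, was low in the members. It was at 4.59, 7.25, 16.7 and 1.88 CPM. A UMI was found in 4.85%, 6.59%, 10.4% and 1.85% of them, against at most 0.115% of epithelial cells in any mouse, and with cells thinned to 2000 UMIs in 1.46%, 0.732%, 3.06% and 0.617% of members. These are shares with a UMI and do not limit how many members express the gene.

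**Figure D2:**
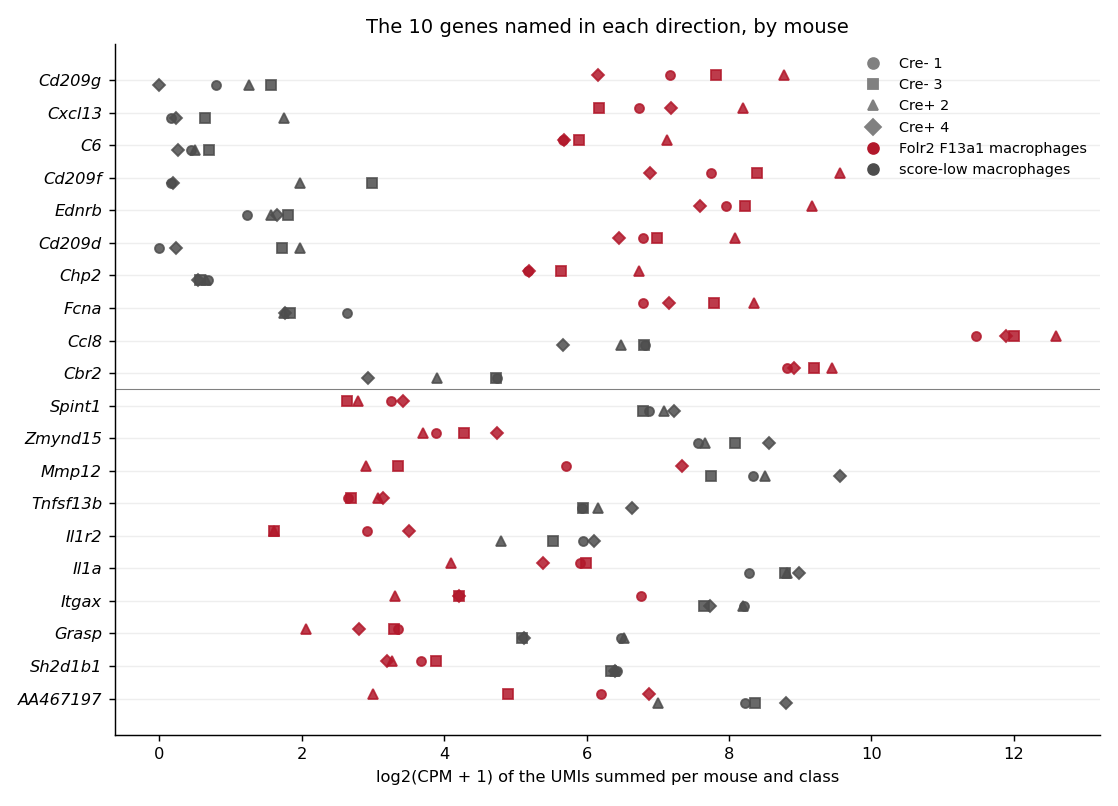
Log2(CPM + 1) (x) of the 10 genes named in each direction (y), in Folr2 F13a1 macrophages (red) and score-low macrophages (gray), with 1 marker shape per mouse. The red and gray points of each gene are apart in all 20 genes, which were chosen for large changes. The members lie to the right in the upper 10 genes and to the left in the lower 10.

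By the rule for naming genes (the 10 largest log2 fold changes in each direction among called genes with a mean of at least 50 CPM in the higher class and 1 direction in all 4 mice), the genes that rose also included C6, Chp2, Cxcl13 and Ccl8. C6, a component of the complement pore, rose by 7.36 ± 0.24, and Chp2, a regulator of sodium-proton exchange, by 6.45 ± 0.22. Adjusted p-values of the 10 rising genes in edgeR lay between 2.27e-05 and 0.000366. The 10 genes that fell the most had log2 fold changes of -4.35 to -2.98 and adjusted p-values of up to 0.00358. No gene of the 20 overlapped between the classes in these 4 mice. The genes were named for large changes of 1 direction in all mice, so this separation is in part set by the choice.

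The 10 genes named for the largest falls included Mmp12, Il1a and Itgax. Mmp12, macrophage elastase, stood at 51.1, 9.17, 6.44 and 162 CPM in the members and at 321, 213, 362 and 753 CPM in score-low macrophages, a log2 fold change of -3.78 ± 0.60. Il1a, an inflammatory cytokine, stood at 59.0, 62.3, 16.0 and 40.7 CPM against 310.1, 442, 448 and 507 CPM (-3.53 ± 0.40). Itgax, which encodes the integrin CD11c, stood at 107, 17.5, 8.91 and 17.5 CPM against 294, 200.2, 291 and 212 CPM (-3.47 ± 0.55). For Itgax the members of Cre- mouse 1 lay well above those of the other mice, and below every score-low value. Il1r2, a decoy receptor for interleukin 1, and Tnfsf13b, the B cell survival factor BAFF, had log2 fold changes of -3.61 ± 0.25 and -3.61 ± 0.10. Spint1, a protease inhibitor, had -4.35 ± 0.15 and Zmynd15 had -4.05 ± 0.10, and the values of Grasp, Sh2d1b1 and AA467197 were -3.25 ± 0.45, -3.12 ± 0.16 and -2.98 ± 0.39.

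Genes of antigen presentation on MHC class II fell together. All 8 listed genes passed in the downward direction (background 19.7%), with a median log2 fold change of -1.91. H2-Ab1, a chain of the class II molecule, stood at 1409, 1988, 2748 and 853 CPM in the members and at 7203, 6164, 10511 and 5356 CPM in score-low macrophages (-2.29 ± 0.18). Cd74, the invariant chain that guides class II molecules, stood at 3737, 5727, 8106 and 2261 CPM against 15305, 14096, 24766 and 12707 CPM (-2.01 ± 0.20). The members of Cre+ mouse 4 were lowest and those of Cre+ mouse 2 highest for both genes, and the classes did not overlap. Ciita, the master regulator of class II genes, fell as well (-1.50 ± 0.18), with overlap between the classes of different mice. The empty droplets of Cre+ mouse 4 held 1666 CPM of H2-Ab1, above its members.

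Chemokines split in direction. Of 15 genes, 7 rose and 5 fell (background 18.6% and 19.7%), with a median log2 fold change of 0.48. Ccl8, a ligand of several CC chemokine receptors, stood at 2829, 4102, 6152 and 3786 CPM in the members and at 112, 111, 88.8 and 49.7 CPM in score-low macrophages (5.41 ± 0.30). Cxcl13, which attracts B cells, stood at 106, 71.4, 292 and 145 CPM against 0.122, 0.557, 2.36 and 0.17 CPM (7.69 ± 0.41), a log2 fold change that was 4.57 with cells thinned to 2000 UMIs. Neither gene overlapped between classes, and Cre+ mouse 2 was highest in the members for both. Ccl6, Ccl7, Ccl9, Ccl2 and Ccl12 rose by 3.20 ± 0.12, 2.42 ± 0.21, 2.39 ± 0.19, 1.53 ± 0.17 and 1.04 ± 0.19; of these, Ccl2, Ccl7 and Ccl12 are ligands of CCR2, the receptor of inflammatory monocytes. Other CC chemokines fell, Ccl5 (-2.46 ± 0.27), Ccl3 (-1.86 ± 0.27) and Ccl4 (-1.48 ± 0.23), as did Cxcl16 (-1.64 ± 0.19) and the interferon-induced Cxcl10 (-0.78 ± 0.17).

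**Figure D3:**
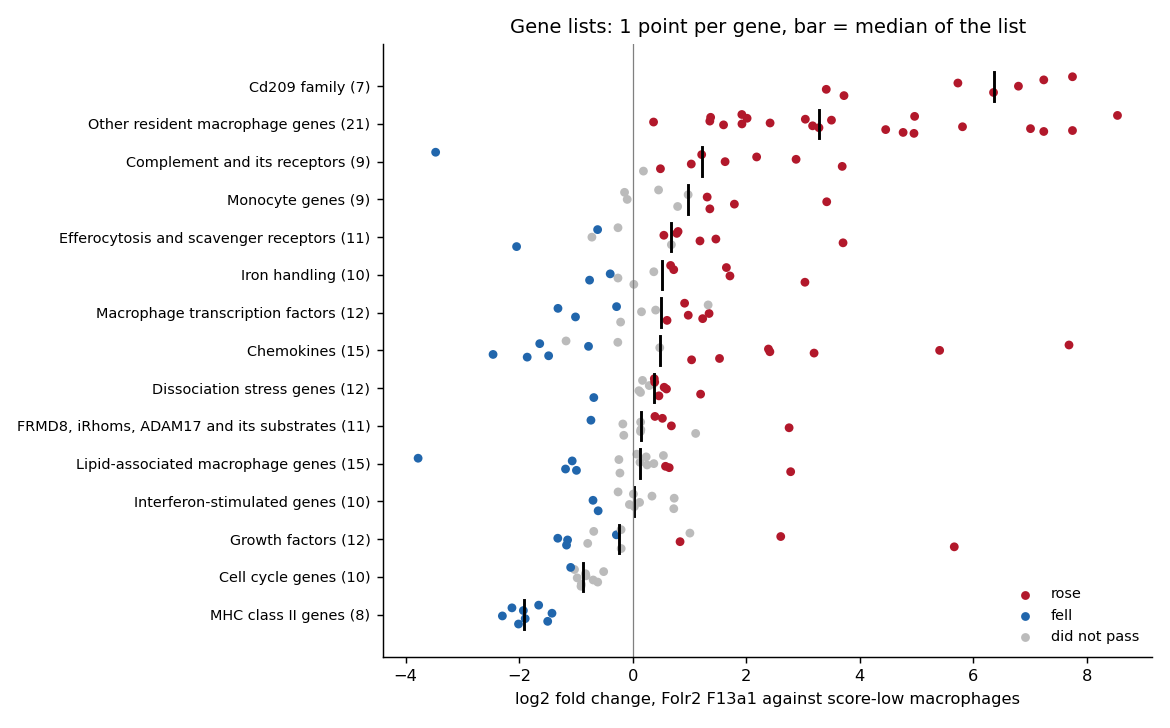
Log2 fold change of Folr2 F13a1 against score-low macrophages (x) for the tested genes of each list (y, number of genes in parentheses), 1 point per gene, red where the gene rose, blue where it fell and gray where it did not pass; black bars mark list medians, from 6.36 for the Cd209 family, chosen after its values were seen, to -1.91 for MHC class II.

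Complement genes were mostly higher. Of 9 genes, 7 rose and 1, Itgax, fell (background 18.6% and 19.7%), with a median of 1.22. C4b, a component of the classical pathway, stood at 364, 595, 1056 and 386 CPM in the members and at 46.4, 43.3, 67.9 and 15.4 CPM in score-low macrophages (3.69 ± 0.26). Cfp, which encodes a stabilizer of the alternative pathway, rose by 2.19 ± 0.29, and Cfb, its protease, by 1.63 ± 0.25. The receptor gene C5ar1 rose by 1.03 ± 0.09. C3, the central component, was at 23.9, 35.2, 54.7 and 24.1 CPM against 25.7, 28.7, 53.0 and 10.2 CPM and did not pass (0.19 ± 0.21).

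Scavenger and efferocytosis receptors, which bind lipoproteins and dying cells, were more often higher. Of 11 tested genes, 6 rose and 2 fell (median 0.68), where 18.6% of all genes rose and 19.7% fell. Dab2, an adaptor for receptor uptake, stood at 1044, 954, 974 and 1033 CPM in the members against 425, 354, 244 and 307 CPM (1.47 ± 0.12). Mertk and Axl, related receptors for GAS6, went opposite ways. Mertk rose by 0.78 ± 0.19. Axl fell, at 92.4, 64.9, 53.3 and 60.7 CPM in the members against 317, 212, 279 and 195 CPM in score-low macrophages (-2.04 ± 0.15). Cd5l, a secreted scavenger protein, rose by 3.71 ± 0.53, with 119.8 CPM in the members of Cre+ mouse 2 and at most 15.1 CPM in the others. Marco and Stab2 were too low to be tested.

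Of 10 iron genes, 5 rose, and the 2 that fell were a share near that of all genes (19.7%). The median was 0.52. Hmox1, which breaks down heme, stood at 742, 852, 759.9 and 1996 CPM in the members and at 431, 177, 209 and 347 CPM in score-low macrophages (1.72 ± 0.27). Cp, the ferroxidase ceruloplasmin, rose by 3.04 ± 0.15, the transferrin receptor gene Tfrc by 1.65 ± 0.32, and the heme transporter gene Slc48a1 and the transferrin gene Trf by 0.72 ± 0.15 and 0.67 ± 0.14. The ferritin heavy chain gene Fth1 fell (-0.76 ± 0.17). The iron exporter gene Slc40a1 was at 16.4, 11.5, 2.60 and 88.6 CPM in the members, with Cre+ mouse 4 far above the others, and did not pass.

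Lipid-associated macrophage genes, which mark another kind of tumor macrophage, did not move together. Of 15 genes, 3 rose and 4 fell, near the shares of all genes (18.6% and 19.7%). The median of 0.13 turned to -0.52 with cells thinned to 2000 UMIs. Trem2, the lipid receptor that defines this kind, was at 812, 587, 445 and 620.0 CPM in the members against 536, 578, 543 and 418 CPM (0.07 ± 0.17). The classes overlapped. Lgals3, Cd9 and Cd63 fell, with log2 fold changes of -1.06 ± 0.15, -1.18 ± 0.25 and -0.99 ± 0.13. The cathepsin genes Ctsb and Ctsd rose by 0.64 ± 0.09 and 0.58 ± 0.14.

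Of 9 tested genes of monocytes, 4 rose and 0 fell in the members (median 0.98, background 18.6% and 19.7%), and the others did not pass. Ccr2, the chemokine receptor through which monocytes leave the marrow, stood at 397, 354, 716 and 191 CPM in the members and at 181, 177, 189 and 47.4 CPM in score-low macrophages (1.36 ± 0.18). Ifitm6 rose by 3.42 ± 0.34, the fibronectin gene Fn1 by 1.79 ± 0.20 and Plac8 by 1.31 ± 0.37. Ly6c2, the marker of inflammatory monocytes, was at 2.62, 9.31, 8.63 and 60.4 CPM in the members against 26.6, 14.6, 6.99 and 10.7 CPM in score-low macrophages and did not pass. Its members were lower in both Cre- mice and higher in both Cre+ mice.

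Among growth factor genes 3 rose and 4 fell of 12 (median -0.24, background 18.6% and 19.7%). Bmp2, a bone morphogenetic protein, stood at 48.5, 44.6, 64.8 and 34.7 CPM in the members and at 0.73, 0.627, 0.975 and 0.823 CPM in score-low macrophages (5.67 ± 0.17), with no overlap. Pdgfc rose by 2.61 ± 0.23 and the progranulin gene Grn by 0.84 ± 0.08. Pdgfb, Csf1, Hgf and Tgfb1 fell, with log2 fold changes of -1.32 ± 0.25, -1.16 ± 0.27, -1.15 ± 0.25 and -0.29 ± 0.09. The small change of Tgfb1 passed in 7 of 15 alternative settings.

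Of 12 transcription factor genes, 5 rose and 3 fell (median 0.51, background 18.6% and 19.7%). Klf4, Id3, Klf2, Tcf4 and Cebpb rose by 1.35 ± 0.16, 1.23 ± 0.16, 0.98 ± 0.12, 0.92 ± 0.08 and 0.61 ± 0.11. Irf8, a regulator of monocyte and dendritic cell fate, fell (-1.01 ± 0.11), as did Pparg (-1.32 ± 0.21) and Spi1, which encodes PU.1 (-0.28 ± 0.08). Of 12 genes that respond to the dissociation of tissue, 6 rose, 1 fell and 5 did not pass, with a median of 0.38. Among all genes, 18.6% rose. Egr1 was at 1298, 1280.3, 2192 and 588 CPM in the members against 505, 446, 839 and 268 CPM (1.20 ± 0.09). The part of these dissociation genes in the other differences was not tested.

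FRMD8, the protein deleted in the epithelium of Cre+ mice, stabilizes the iRhom proteins that carry the protease ADAM17 to the cell surface, where ADAM17 sheds TNF, its receptors and EGF receptor ligands. Of 11 tested genes of this pathway, 4 rose in the members and 1 fell (median 0.15, background 18.6% and 19.7%). Frmd8, Adam17 and Rhbdf2, which encodes the main iRhom of macrophages, did not pass, with log2 fold changes of 0.15 ± 0.12, -0.16 ± 0.09 and 0.14 ± 0.11. Hbegf, an EGF receptor ligand, stood at 37.7, 28.5, 19.9 and 17.5 CPM in the members and at 2.80, 3.13, 3.41 and 3.49 CPM in score-low macrophages (2.76 ± 0.25). The receptor genes Il6ra, Tnfrsf1a and Tnfrsf1b rose by 0.68 ± 0.11, 0.52 ± 0.10 and 0.39 ± 0.08, and Tnf fell (-0.73 ± 0.09). Ereg and Tgfa were too low to be tested. Interferon-stimulated genes (0 rose and 2 fell of 10) and cell cycle genes (0 rose and 1 fell of 10) had medians of 0.02 and -0.87. The background is the same for both lists. Among 8 general macrophage markers, Mertk, Lyz2 and Adgre1 rose by 0.78 ± 0.19, 0.78 ± 0.14 and 0.69 ± 0.08, and Aif1 (-0.99 ± 0.11) and Cd14 (-0.69 ± 0.15) fell.

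The Folr2 F13a1 macrophages were not uniform. Members of at least 5000 UMIs were divided into those with at least 2 Lyve1 UMIs per 10000 (45, 115, 220 and 35 cells) and those with none (101, 195, 145 and 85 cells). Since Lyve1 was part of the rule and the cells were divided by a measured value, the levels are a description. Mrc1 was at 3117, 2399, 2386 and 2171 CPM in members with Lyve1 and at 999, 1096, 1294 and 1055 CPM in those without. Ednrb was at 771, 707, 902 and 532 CPM with Lyve1 and at 71.6, 74.7, 115 and 55.9 CPM without, and Cd209f at 805, 873, 1135 and 423 CPM with and at 49.4, 43.2, 165 and 17.3 CPM without. Ccl8 was at 5553, 8427, 7677 and 7077 CPM with Lyve1 and at 2021, 1744, 2545 and 2252 CPM without. For these 4 genes every mouse was higher with Lyve1, and the lowest value with Lyve1 was above the highest without.

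Il1b and Spp1 had the opposite order. Il1b, the cytokine interleukin 1 beta, was at 221, 144, 139 and 240.1 CPM in members with Lyve1 and at 624, 1142, 447 and 601 CPM in those without. Spp1, which encodes osteopontin, was at 41.9, 125, 90.3 and 331 CPM with Lyve1 and at 13698, 1687, 2961 and 702 CPM without. Spp1 came from few cells. Over all members it stood at 9441.5, 1002, 1065 and 1031 CPM, and the 20 members with the most held 82.6%, 76.5%, 95.7% and 86.7% of its UMIs. Members with at least 100 Spp1 UMIs per 10000 numbered 32, 9, 5 and 2, of which 30, 9, 5 and 1 had no Lyve1 UMI. The MHC class II genes H2-Aa, H2-Ab1, H2-Eb1 and Cd74 were also summed. Their sum was lower with Lyve1 than without in mice 3, 2 and 4 (8588, 12385 and 4381 CPM against 13174, 22127 and 5626 CPM). It was higher with Lyve1 in mouse 1 (8748 against 7411 CPM).

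**Figure D4:**
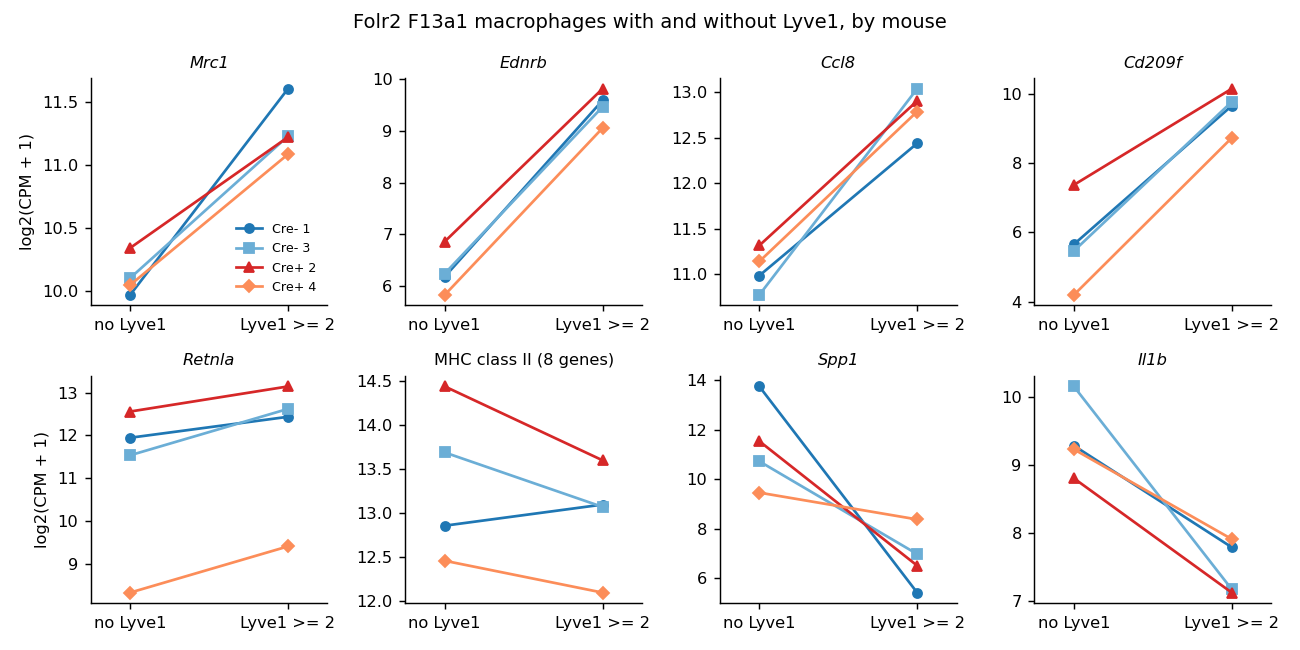
Log2(CPM + 1) (y) of 7 genes and of summed MHC class II genes in Folr2 F13a1 macrophages without a Lyve1 UMI and with at least 2 per 10000 (x), 1 line per mouse, with a separate y scale in each panel. The panel titled MHC class II (8 genes) sums only H2-Aa, H2-Ab1, H2-Eb1 and Cd74. The lines of Mrc1, Ednrb, Ccl8, Cd209f and Retnla rise in all 4 mice, those of Spp1 and Il1b fall in all 4, and that of MHC class II rises in Cre- 1 and falls in the others.

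The share of Folr2 F13a1 macrophages among C1q macrophages varied more between the Cre+ mice than between genotypes. It was 24.1% (95% Clopper-Pearson interval 21.3% to 27.1%) and 31.9% (29.4% to 34.6%) in Cre- mice 1 and 3, and 34.7% (32.2% to 37.2%) and 8.27% (7.09% to 9.58%) in Cre+ mice 2 and 4, of 854, 1284, 1413 and 1959 C1q macrophages. The intervals cover counting error only. The Cre+ mice gave the highest and the lowest value, so the genotypes overlapped. Cre- mice averaged 28.0% with an SD of 5.52 and Cre+ mice 21.5% with an SD of 18.7 (n = 2 each), a difference of -6.55 percentage points (exact two-sided permutation test, p = 1.00, where 0.3333 is the smallest p that 2 against 2 mice allow). Without Cre+ mouse 4 the difference was 6.65 percentage points, in the opposite direction. That library also held C1q in its empty droplets, at 65.2 per 10000 UMIs, above the limit of 10 used for macrophages, while the 4 score genes were at 0.548 per 10000. Counting only cells with at least 50 C1q UMIs per 10000, a limit chosen after this was seen, left a difference of -7.56 percentage points. That limit still lies below the level of the empty droplets, so it cannot show how far free C1q RNA entered the class.

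Between genotypes, the level of Frmd8 in the members was compared first. It stood at 26.5 and 24.4 CPM in Cre- and at 23.2 and 18.5 CPM in Cre+ mice (81, 178, 169 and 59 UMIs), a log2 fold change of -0.24 ± 0.23 (edgeR, adjusted p = 1.00), which turned to 0.17 with a score of at least 10. Score-low macrophages held 27.7, 21.3, 15.6 and 13.1 CPM. In epithelial cells, the target of the transgene, Frmd8 was at 24.5 and 24.5 CPM in Cre- and at 5.74 and 11.3 CPM in Cre+ mice. Tags from the 3' end need not lie in the deleted exons, so they check the deletion only in part.

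In the members, edgeR passed 0 of 11085 genes between Cre+ and Cre- mice (0%), and 279 genes (2.52%) had an unadjusted p under 0.05. Both Cre+ mice lay above both Cre- mice in 1039 genes (9.37%) and below them in 1654 (14.9%). With every gene of at least 1 UMI kept, edgeR passed 219 of 17528 genes, 82 higher in Cre+ and 137 lower. DESeq2 passed 18 of 10392 genes. Of these, 12 were higher in Cre+ (Plac8, Ly6a, Ly6c1, Dcn, Ms4a4c, Rsad2, Ifit1, Ifit2, Ifit3, Isg15, Oasl1 and Usp18) and 6 lower (Slc7a2, Prc1, Cenpf, Mki67, Tnc and Dhrs9). These 18 genes did not overlap between genotypes, a separation that is in part set by choosing genes that DESeq2 called. The edgeR count also moved when 1 mouse was left out, in fits where 1 genotype had a single mouse, assumed to vary like the others.

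Most of the 10 listed interferon-stimulated genes were higher in the members of both Cre+ mice than in those of both Cre- mice. Between genotypes, 0 of the 10 passed in edgeR. In 9 of the 10 listed genes both Cre+ mice lay above both Cre- mice (background 9.37%), and the median log2 fold change was 1.56 against 0.02 over all genes tested. Isg15, a ubiquitin-like antiviral protein, stood at 45.9 and 74.3 CPM in Cre- and at 151 and 258 CPM in Cre+ mice (1.80 ± 0.39). Rsad2, which encodes viperin, stood at 41.3 and 39.0 CPM against 119.8 and 181 CPM (1.95 ± 0.28), and Ifit1 at 24.3 and 27.5 CPM against 83.0 and 97.3 CPM (1.84 ± 0.23). These genes did not pass in edgeR (adjusted p of 0.979, 0.411 and 0.411) and passed in DESeq2. The remaining gene, Bst2, was at 512, 440.1, 465 and 696 CPM and overlapped.

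The median member showed the same order. Per 10000 UMIs the median member held 5.78 and 5.53 UMIs of the 10 genes in Cre- and 8.02 and 8.14 in Cre+ mice, and the 20 members with the most held 45.0%, 25.6%, 30.4% and 55.6% of the UMIs. In score-low macrophages Isg15 was at 111, 119, 116 and 418 CPM, high in mouse 4 and not in mouse 2. The empty droplets of mouse 4 held 352 CPM of Isg15, 124 CPM of Rsad2 and 86.1 CPM of Ifit1, and the part of this free RNA in its cells was not tested.

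The differences were smaller with every cell thinned to 2000 UMIs before the members were chosen. The 9 genes that could then be tested were all above 0, with a median log2 fold change of 0.50, against 1.43 for the same genes without thinning, and each of the 9 was smaller. Isg15 and Rsad2 were at 1.12 ± 0.33 and 1.21 ± 0.32. Ifit1 was at 0.21 ± 0.35, from 16, 23, 49 and 9 UMIs, and its genotypes overlapped. In 6 of the 9 both Cre+ mice lay above both Cre- mice, against 12.5% of the 5370 genes tested after thinning. None of the 9 passed (edgeR, adjusted p = 1.00 for each). The cause of the smaller values was not tested.

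Cell cycle genes had, in part, the opposite order. In 5 of 10 genes both Cre+ mice lay below both Cre- mice (background 14.9%), with a median log2 fold change of -1.24, which ranged from -3.40 without mouse 4 to -0.33 without mouse 2. Mki67, a marker of cycling cells, stood at 136 and 63.4 CPM in Cre- and at 17.9 and 34.7 CPM in Cre+ mice (-1.87 ± 0.47), and Top2a at 124 and 65.3 CPM against 8.63 and 40.4 CPM. The members of Cre- mouse 1, which were also those with the most Spp1, were highest for both genes. The shares of members with a UMI did not keep this order. Mki67 was detected in 17.5% and 16.8% of members in Cre- and in 10.2% and 19.1% in Cre+ mice, and with cells thinned to 2000 UMIs in 8.74% and 5.12% against 1.84% and 5.56%. Top2a was detected in 17.5% and 13.2% against 5.92% and 19.8%, and thinned in 5.34% and 4.88% against 1.43% and 5.56%. Cre+ mouse 2 was lowest and Cre+ mouse 4 lay within or above the Cre- mice.

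**Figure D5:**
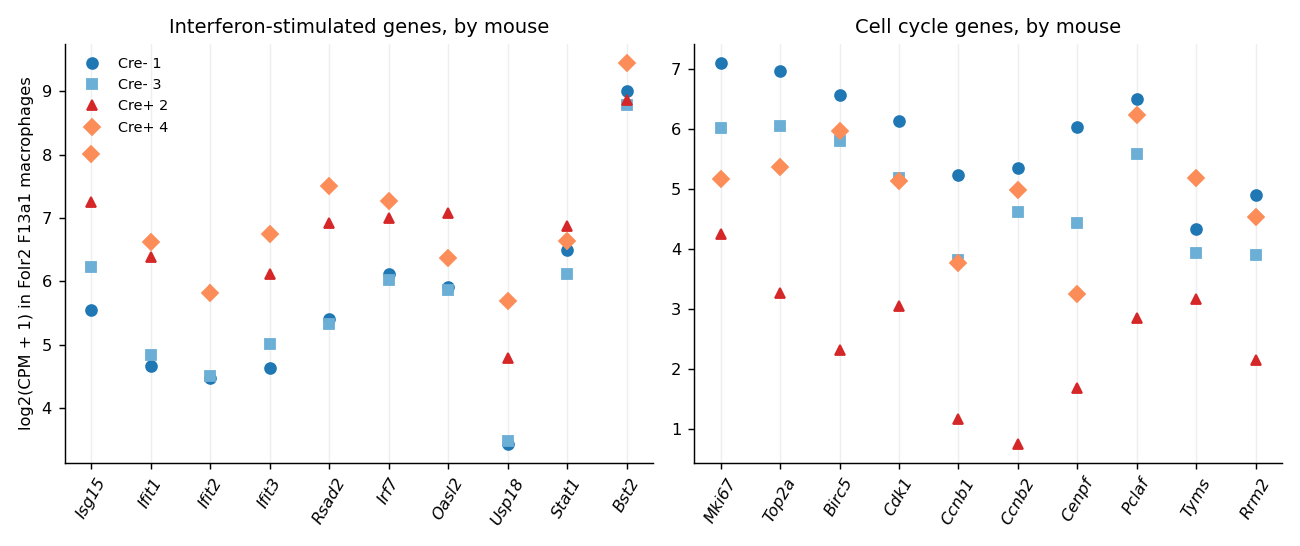
Log2(CPM + 1) in Folr2 F13a1 macrophages (y) of 10 interferon-stimulated genes (left) and 10 cell cycle genes (right), 1 point per mouse and gene. Both Cre+ mice lie above both Cre- mice in 9 interferon-stimulated genes, and below them in 5 cell cycle genes.

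Other genes that separated the genotypes in the members came from several lists. Plac8 stood at 70.1 and 78.8 CPM in Cre- and at 318 and 419 CPM in Cre+ mice (2.35 ± 0.27, adjusted p = 0.411 in edgeR), and in score-low macrophages at 51.0, 54.0, 51.9 and 97.4 CPM. The 9 monocyte genes, to which Plac8 belongs, had a median of 0.02, with 2 higher in both Cre+ mice and 3, Fn1, Thbs1 and Vcan, lower in both (background 9.37% and 14.9%). Fn1 stood at 2500.1 and 1934 CPM in Cre- and at 1246 and 270 CPM in Cre+ mice (-1.52 ± 0.67, adjusted p = 1.00 in edgeR). Of 11 tested genes of the FRMD8 and ADAM17 pathway, 4 were lower in both Cre+ mice and 0 higher (background 14.9% and 9.37%). Their median was -0.15, and 0 passed in edgeR. The 4 included Areg (-3.01 ± 0.91, unadjusted p = 0.0163 in edgeR) and Hbegf (-0.76 ± 0.24, unadjusted p = 0.0175, adjusted p = 1.00 in edgeR). Among the fibroblast markers 4 of 6 were higher in both Cre+ mice (background 9.37%), with Dcn, which encodes the matrix protein decorin, at 15.4 and 13.1 CPM against 95.8 and 50.7 CPM in the members and at 33.0, 130.3, 150.4 and 24.8 CPM in score-low macrophages. The empty droplets of mouse 4 held 151 CPM of Dcn and 184 CPM of Plac8, so that its Dcn was higher there than in its members. The part of this free RNA and of other cells in these counts was not tested. The 21 resident macrophage genes had a median log2 fold change of 0.37 between genotypes, which turned to -0.10 without mouse 2, and 2 of them were higher in both Cre+ mice, a share near the background of 9.37%.

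No gene passed the test of whether the class difference itself differed between genotypes (0 of 12207 genes, 0%, in edgeR with the mouse as a block). An unadjusted p under 0.05 was reached by 425 genes, and DESeq2 passed 21.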

How the data were processed

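For the 4 mice the authors deposited whole UMI counts of genes in barcodes, not normalized. They were made with Cell Ranger 6.1.2 for mice 1 to 3 and Cell Ranger 4 for mouse 4 per the file headers. The submitters' processing notes name the build hg38, while the features are 32285 mouse Ensembl genes, so the build is not given in the sources used here. Mice 1 to 3 were deposited as called cells of at least 500 UMIs and mouse 4 with 2582424 barcodes, so the minimum of 2000 UMIs was set in all. No cell annotation was used, and cell names were rebuilt from genes. Doublets were kept, and no doublet caller was run. Libraries shared 8 to 14 barcodes per pair, and 1 barcode was a member in 2 libraries.

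Counts were summed per mouse and class and tested with edgeR 4.0.16 (TMM, filterByExpr, quasi-likelihood, Benjamini-Hochberg, threshold 0.05), with DESeq2 1.42.0 as an alternative, in R 4.3.3. Class sums of 1 mouse come from 1 library, so the mouse number pairs them. The deviations of both classes of a mouse from mean levels correlated at 0.25 to 0.68 over 5741 genes, which was checked once. Tests compare 4 mice, 2 per genotype, and p-values measure the spread between them. Scripts were tested on simulated data. Of genes given a log2 fold change of 1 in either direction, edgeR recovered 3.19% between genotypes and 7.14% for the class difference between genotypes. At a log2 fold change of 2 it recovered 64.1% and 60.6%. A count of 0 passing genes in these tests thus does not show that no gene changed. Epithelial cells for the background of detection held at least 20 UMIs of Epcam, Krt8 and Krt18 per 10000. Named genes were 10 per direction, those of the largest absolute log2 fold change that were called, had 1 direction in 4 mice and reached 50 CPM, Frmd8, up to 5 genes per direction for the genotypes (0 were called), and 14 lists. Of 170 listed genes, 165 were tested. Some of them enter the counts and medians and are not reported here by name. Members, lists and tests were chosen with earlier results of these data known. Promoter sequences came from RefSeq (GRCm38.p6), and 7 of the 7 measured Cd209 genes were matched by symbol. Fold changes are log2 values with their standard errors.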

Additional observations from a re-analysis of the deposited data

Results flagged for a closer look

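In 5 of the 165 listed genes tested (3.03%, against 4.2% of all 12207 genes tested) the difference between Folr2 F13a1 and score-low macrophages had opposite directions in the genotypes, with each mouse of a genotype on the same side. The values are differences of log2(CPM + 1) between the classes, Cre+ minus Cre-. Ly6c2, a marker of inflammatory monocytes, had 3.10, with -1.76 in Cre- and 1.33 in Cre+ mice. Fabp4, a fatty acid carrier, had 1.62 (-0.44 and 1.18). The growth factor gene Fgf2 had -1.03 (0.11 and -0.93), Ang had 0.22 (-0.17 and 0.06) and the protease gene Adam17 had -0.18 (0.09 and -0.10). In the test of the difference itself, edgeR gave an adjusted p of 1 for each of these 5 genes, so none passed.

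The empty droplets of Cre+ mouse 4, which the comparisons did not use, held 65.2 UMIs of C1qa, C1qb and C1qc per 10000, against 0.548 of the 4 score genes. Free RNA of C1q was thus present at a level above the limit of 10 per 10000 that both macrophage classes had to reach. Members with fewer than 50 C1q UMIs per 10000 were 7.77%, 5.85%, 5.51% and 5.56% of the members of mice 1, 3, 2 and 4, so most members lay above 50 in each mouse.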

How the results depend on the processing

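The share of members among C1q macrophages, Cre+ minus Cre-, ranged from -19.8 to 6.65 percentage points when 1 mouse was left out, and turned positive only without mouse 4. Its other alternatives gave -7.56 to -1.97. Between genotypes in the members, 0 genes passed in edgeR, against 18 in DESeq2, 219 when every gene with at least 1 UMI was kept, and 4 to 84 when 1 mouse was left out, where the lone sample of a genotype is assumed to vary like the others. Between classes, 4681 genes passed, 3011 to 4010 when 1 mouse was left out, and 2811 without the replicate block, of which 2809 were among the 4681. The test of whether the class difference depended on genotype passed 0 genes, against 21 in DESeq2, 24 with every gene kept and 1 with at least 50 C1q UMIs per 10000, an alternative added after the data were seen. The Frmd8 change turned to 0.17 with a score of at least 10. The cause of these shifts was not tested. All 20 named genes kept their direction and passed in all 15 alternatives. As folds, 12 of the 20 moved by over 1.5 times in at least 1 alternative, and 3 became smaller by that much, Cxcl13 (4.57 thinned, 7.10 without mouse 4), Grasp (-2.64 without mouse 2) and Mmp12 (-3.12 without the replicate block, -3.15 without mouse 2). Keeping every gene moved the median of all genes between classes to -0.13. The members of mice 1 and 4 were the fewest, 206 and 162 cells with 3051527 and 3194977 UMIs, so that low genes rest on few UMIs in these mice.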

Other observations

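Retnla, a secreted protein of alternatively activated macrophages, lies outside the rule for named genes and was chosen after its values were seen. It stood at 4830.0, 4448, 7727 and 416 CPM in the Folr2 F13a1 macrophages of mice 1, 3, 2 and 4, and at 265, 118, 193 and 12.9 CPM in score-low macrophages. The members were higher in each mouse, and the members of Cre+ mouse 4 were far below those of the other mice. It was detected in 49.5%, 51.5%, 77.1% and 19.1% of members, at unequal depth, and in 8.50%, 18.3%, 30.8% and 2.71% of epithelial cells, which should lack it. With cells thinned to 2000 UMIs the shares were 42.2%, 34.9%, 64.9% and 14.2% of members and 1.27%, 4.08%, 6.24% and 0.767% of epithelial cells.

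The summed profiles of the members correlated between mice with Pearson r of 0.924 to 0.975 over genes. The lowest value was that between the Cre+ mice 2 and 4. Genes are not independent replicates, and the value is a description.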
